A study of Mus musculus with 6 samples.

Results

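Npy, Prss56, Mybpc1, Ngfr and Fabp7 were taken as a set of olfactory ensheathing cell genes and were followed in astrocytes labelled as sorted from the mouse olfactory bulb, with and without deletion of Sox9. The set was chosen by gene symbol, and each of the 5 symbols was found once in every library, among 24421 genes listed. All 5 passed the filter on low values, which asked for a mean normalized count of 1 or more across the libraries and left 18413 genes to test. A normalized count is a gene's read count divided by 1 size factor per library.

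The study compared 3 control mice with 3 Sox9 KO mice, all adult males, with 1 RNA-seq library per mouse. Both groups received AAV-GFAP-iCre-P2a-TurboRFP in both olfactory bulbs, a virus in which the GFAP promoter drives the recombinase Cre and the red fluorescent protein TurboRFP. The KO mice carried Sox9fl/fl, and the controls were C57BL/6J mice with no floxed Sox9; the strain label of all 6 libraries is C57BL/6. TurboRFP-positive cells were sorted by FACS 4 weeks after the injection, straight into lysis buffer, and the GFAP promoter is the only selection for a cell type that the labels give. In bulk samples of this kind, fewer cells of a type and less RNA per cell cannot be told apart.

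Olfactory ensheathing cells are glia of neural crest origin that wrap the axons of olfactory sensory neurons on their way from the nose into the outer layer of the bulb. They share genes with Schwann cells, among them Sox10 and Ngfr, and can also express the astrocyte filament protein GFAP. None of the 5 genes is private to them: Npy is made by interneurons, Ngfr by Schwann cells and some neurons, and Fabp7 by radial glia and astrocytes.

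The genes lie apart from each other in the mm10 genome, with coordinates from GENCODE M21. Npy is at chr6:49822710-49829507 on the plus strand with 4 exons, Prss56 at chr1:87183313-87188405 on the plus strand with 13 exons, and Ngfr at chr11:95568818-95587735 on the minus strand with 6 exons. Mybpc1, at chr10:88518279-88605152 on the minus strand with 29 exons, and Fabp7, at chr10:57784881-57788450 on the plus strand with 4 exons, share a chromosome. A gene model on the opposite strand that awaits experimental evidence, Gm48752, shares 252 exonic bases with Mybpc1. It is not listed in the deposited tables, and the sources used here do not say whether counting used the strand, so its reads cannot be told apart from those of Mybpc1.

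The 250 bases upstream of the RefSeq start (GRCm38.p6) are shown for Ngfr, Fabp7 and Npy, because these were the gene with the largest fall, the gene with the highest level and the gene with the smallest estimated fall. They read 5′ to 3′ on the strand of the gene, and capitals mark the GC box GGGCGG or its reverse complement CCGCCC.
Ngfr, chr11:95587699-95587948, minus strand: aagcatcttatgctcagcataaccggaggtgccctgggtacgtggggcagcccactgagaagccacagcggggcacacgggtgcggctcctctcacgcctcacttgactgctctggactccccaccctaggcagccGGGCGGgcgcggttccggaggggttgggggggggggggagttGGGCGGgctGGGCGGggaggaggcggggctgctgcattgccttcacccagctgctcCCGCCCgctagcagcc
Fabp7, chr10:57784673-57784922, plus strand: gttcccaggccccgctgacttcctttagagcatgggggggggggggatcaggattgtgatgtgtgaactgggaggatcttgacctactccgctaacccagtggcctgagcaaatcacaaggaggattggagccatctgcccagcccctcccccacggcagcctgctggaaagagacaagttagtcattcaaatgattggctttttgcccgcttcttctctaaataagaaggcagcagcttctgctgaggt
Npy, chr6:49822460-49822709, plus strand: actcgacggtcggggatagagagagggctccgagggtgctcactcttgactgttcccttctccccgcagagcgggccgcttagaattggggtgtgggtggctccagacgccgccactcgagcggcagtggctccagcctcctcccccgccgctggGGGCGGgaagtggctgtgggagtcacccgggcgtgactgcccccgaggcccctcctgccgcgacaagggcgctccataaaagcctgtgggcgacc

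The Ngfr stretch held 4 GC boxes and the Npy stretch 1, and those of Fabp7, Prss56 and Mybpc1 held none. Of 32851 RefSeq promoters, 32.7% hold this motif in the same window. GC content was 70.4% for Ngfr, 69.2% for Npy, 61.2% for Prss56, 54.8% for Fabp7 and 46.4% for Mybpc1. The Prss56 window is chr1:87183064-87183313, and its RefSeq gene starts at 87183102. The Mybpc1 window is chr10:88605153-88605402, and its RefSeq gene, on the minus strand, starts at 88605229. Both of these windows thus lie partly inside the RefSeq gene. The TATA box TATAAA, found in 12.4% of the promoters, was in none of the 5 windows on either strand. The letters AACAAT and AACAAAG, which SOX proteins can bind, were searched on both strands in the full 300-base promoters, from 250 bases before the start to 50 after. AACAAT is in 10.7% of all promoters, AACAAAG in 5.85% and either of them in 15.7%, and neither was found in the 5 promoters. This says only that these letters are not in these windows.

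The deletion itself was visible in every library. Sox9 stood at 5185, 6562 and 4921 normalized counts in control replicates 1, 2 and 3 and at 52.6, 64.3 and 57.7 in KO replicates 1, 2 and 3, a log2 fold change of -6.54 (SE 0.15; limma adjusted p 2.47e-09). The libraries held 18242129 to 86906527 reads on genes, and 1 read was worth between 0.395 and 1.58 normalized counts. Of all genes tested, 51.0% were called, meaning a limma adjusted p under 0.05 and at least 1.5-fold, with 28.8% lower and 22.2% higher in KO, and in 67.2% the groups did not overlap. All 7 microglia and macrophage markers were higher in KO, with a summed level of 88443 to 107198 normalized counts in controls and 298653 to 380163 in KO, and all 9 astrocyte markers were lower, with 484759 to 543726 in controls and 33825 to 43825 in KO. These shifts in the sorted material ran beside every result that follows, and their part in it was not tested.

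Of the 5 genes, 4 were called lower in KO and none higher, against 28.8% of all genes called lower. In 3 of them, Mybpc1, Ngfr and Fabp7, all KO libraries lay under all control libraries, which held for 34.7% of all genes tested; in none were all KO libraries above all controls, which held for 32.4%. The median log2 fold change of the 5 genes was -0.99, beside -0.07 for all genes tested. The size of the change differed widely, from a KO level of 10.3% of control for Ngfr to 68.8% for Npy.

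**Figure D1:**
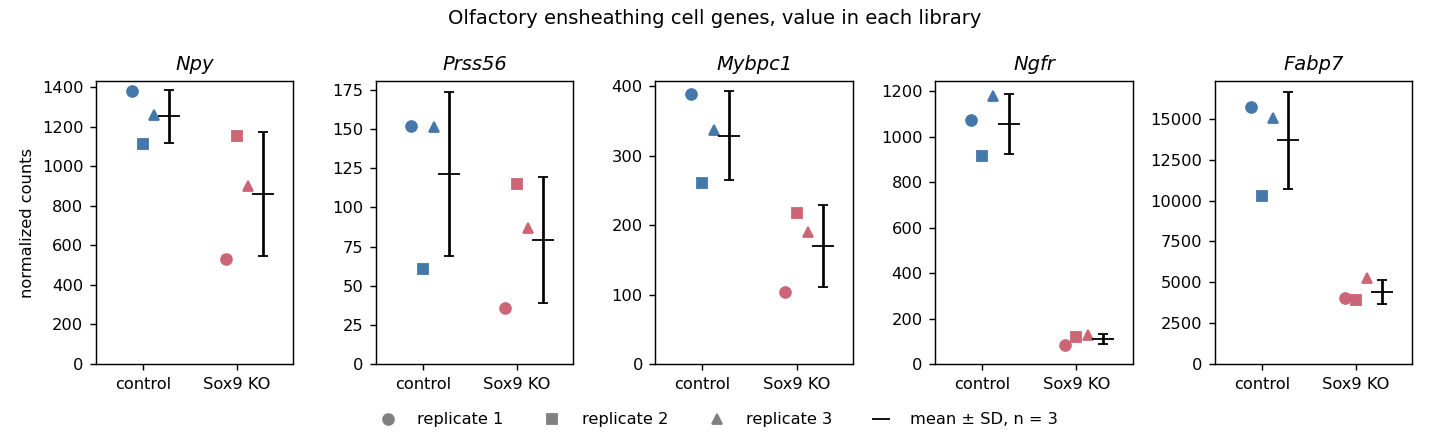
Normalized counts (vertical axes, each from 0) of Npy, Prss56, Mybpc1, Ngfr and Fabp7 in the 3 control and 3 Sox9 KO libraries; marker shapes give the replicate and black bars the mean ± SD (n = 3). The groups are apart for Mybpc1, Ngfr and Fabp7 and overlap for Npy and Prss56.

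Ngfr encodes the p75 neurotrophin receptor, a receptor for all neurotrophins and their precursors and a surface protein long used to isolate ensheathing cells. It stood at 1074, 915 and 1181 normalized counts in control replicates 1, 2 and 3, from 735, 1329 and 749 reads. In KO replicates 1, 2 and 3 it stood at 83.4, 117 and 126, from 84, 297 and 83 reads. The lowest control library was far above the highest KO library. The means were 1056 ± 134 and 109 ± 22.5 (SD, n = 3), a 9.70-fold difference, with a log2 fold change of -3.28 (SE 0.19; limma adjusted p 1.93e-07). Only 5.27% of the genes tested had a lower fold change.

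Fabp7 encodes the brain-type fatty acid-binding protein, a carrier of long-chain fatty acids in radial glia, astrocytes and ensheathing cells. It was the most abundant of the 5, with 15731, 10257 and 15067 normalized counts in control replicates 1, 2 and 3. KO replicates 1, 2 and 3 held 4065, 3943 and 5261. All KO libraries were below all controls, and the KO libraries were close to each other. The means were 13685 ± 2987 and 4423 ± 728 (SD, n = 3), 3.09-fold lower in KO, with a log2 fold change of -1.62 (SE 0.17; limma adjusted p 1.33e-05).

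Mybpc1 encodes a myosin-binding protein best known from slow skeletal muscle. Control replicates 1, 2 and 3 held 389, 261 and 337 normalized counts, and KO replicates 1, 2 and 3 held 104, 217 and 190. The groups were apart, but the highest KO library was near the lowest control. The means were 329 ± 64.4 and 170 ± 58.9 (SD, n = 3), with a log2 fold change of -0.99 (SE 0.28; limma adjusted p 0.0101). Under quantile normalization the log2 fold change was -0.47 and Mybpc1 was not called (limma adjusted p 0.131).

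Npy encodes neuropeptide Y, a secreted peptide that signals through G protein-coupled receptors and that ensheathing cells make during the growth of the olfactory nerve. Control replicates 1, 2 and 3 held 1384, 1111 and 1263 normalized counts, and KO replicates 1, 2 and 3 held 531, 1155 and 899. KO replicate 2 lay above control replicate 2, so the groups overlapped. The means were 1253 ± 137 and 862 ± 314 (SD, n = 3), with a log2 fold change of -0.60 (SE 0.24; limma adjusted p 0.0463). This call was lost in 13 of 19 alternatives, over which the adjusted p ran from 0.00665 to 0.142. Without KO replicate 1 the log2 fold change was -0.29 (limma adjusted p 0.126), and the call was also lost without any 1 of control replicates 1, 2 and 3 or KO replicate 3. Of all genes tested, 35.9% had a lower fold change than Npy.

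Prss56 encodes a secreted serine protease, known from the growth of the eye. Control replicates 1, 2 and 3 held 152, 60.6 and 151 normalized counts, and KO replicates 1, 2 and 3 held 35.7, 115 and 86.6. Control replicate 2 was lower than 2 of the KO libraries. The means of 121 ± 52.6 and 79.1 ± 40.1 (SD, n = 3) gave a log2 fold change of -0.65 with an SE of 0.48, and Prss56 was not called (limma adjusted p 0.264). It had the fewest reads of the 5 genes, between 36 and 291 per library, and under quantile normalization its estimate turned to 0.14.

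Levels can be compared between genes only per length. For this, normalized counts were divided by the exonic length and scaled to a sum of 1000000 per library, a scale that also moves with everything else in the library. In controls the order was Fabp7 at 1483 ± 344, Npy at 299 ± 37.4, Ngfr at 41.5 ± 5.75, Mybpc1 at 11.2 ± 2.36 and Prss56 at 7.55 ± 3.35 (SD, n = 3). Only Mybpc1 and Prss56, neighbours in this order, overlapped. In KO the order was Fabp7 at 336 ± 57.9, Npy at 146 ± 59.4, Mybpc1 at 4.11 ± 1.58, Prss56 at 3.50 ± 1.90 and Ngfr at 3.01 ± 0.73, and the last 3 overlapped. Ngfr thus moved from above Mybpc1 and Prss56 to a level that overlapped theirs, from the 73.8th to the 38.2nd percentile of the genes tested, while Fabp7 remained high, at percentiles of 99.6 and 97.8.

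**Figure D2:**
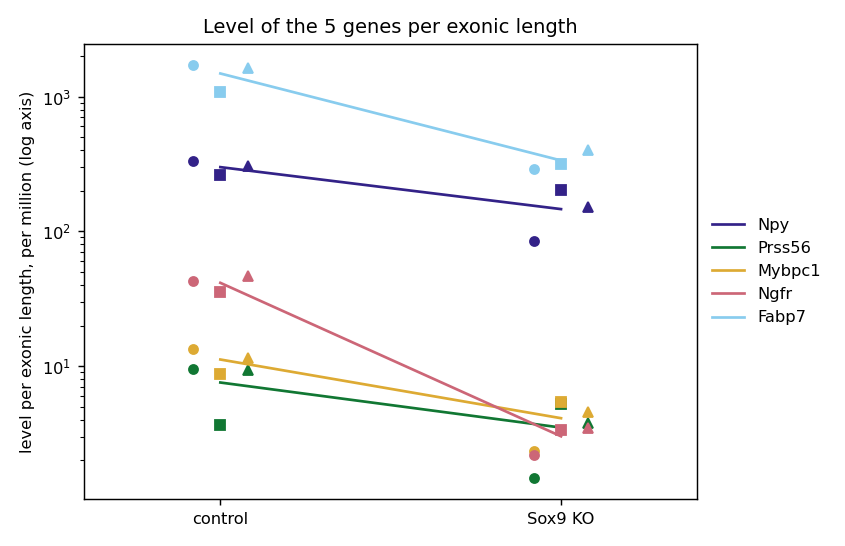
Level per exonic length, scaled to a sum of 1000000 per library (vertical log axis), of the 5 genes in the control and Sox9 KO libraries; points are libraries, with circles, squares and triangles for replicates 1, 2 and 3, and lines join the group means. The line of Ngfr is the steepest, from 41.5 to 3.01, and crosses those of Mybpc1 and Prss56.

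Whether the 5 genes changed by different amounts was tested on ratios within a library, which do not depend on the size factor. Ngfr stood at 77.6%, 82.3% and 93.5% of Npy's normalized counts in control replicates 1, 2 and 3 and at 15.7%, 10.2% and 14.0% in KO replicates 1, 2 and 3. Fabp7 stood at 11.4, 9.23 and 11.9 times Npy in controls and at 7.65, 3.41 and 5.85 times in KO. In both ratios every KO library lay below every control library. Of the 10 pairs of genes, 7 had ratios that did not overlap between the groups, among them all 4 pairs with Ngfr. For single genes the groups did not overlap in 67.2% of all genes tested. The share over other pairs of genes was not computed.

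The log2 ratio of Ngfr to the others changed from control to KO by -2.68 against Npy, -2.63 against Prss56, -2.29 against Mybpc1 and -1.66 against Fabp7. The log2 ratio of Fabp7 changed by -1.01 against Npy and by -0.62 against Mybpc1, and that of Mybpc1 by -0.39 against Npy. For each of these 7 ratios the two-sided exact permutation test gave p = 0.1, the smallest that 3 libraries against 3 can give, or 0.143 when adjusted over the 10 pairs, so none could pass 0.05. Quantile normalization moved several of these ratios: Mybpc1 to Npy changed sign, to 0.10, Ngfr to Fabp7 went to -0.84, Fabp7 to Mybpc1 to -1.61 and Fabp7 to Npy to -1.51. It also moved Ngfr to Npy to -2.34. The other pairs overlapped: Fabp7 to Prss56 differed by -0.97 (exact permutation p = 0.3), Mybpc1 to Prss56 by -0.34 (exact permutation p = 0.4) and Prss56 to Npy by -0.04 (exact permutation p = 1). Under quantile normalization the first and the last of these were -2.21 and 0.71.

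A further 15 genes known from ensheathing cells and their crest relatives were all tested, and 11 were called lower, 1 higher and 3 were not called, beside 28.8% of all genes tested called lower and 22.2% higher. Under quantile normalization 8 of the 15 were called, in place of 12. The median over the 15 was -1.10 on the log2 scale, and their summed level in KO was 51.4% of control. The sum is of normalized counts not divided by length, and Sparc weighs most in it. The Sparc mean was 38092 in controls, where the sum was 72422 to 74188. In KO the Sparc mean was 22489 and the sum 28589 to 47179. The transcription factor Sox10, which specifies crest glia, was lower with a log2 fold change of -1.43, while Foxd3, another crest factor, was at -0.58 and the neuregulin receptor Erbb3 at -0.55, both not called. Markers of oligodendrocytes, their precursors and neurons also fell in these libraries. Which cells the reads of the 15 genes came from was not tested.

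The lowest fold changes in this list were those of the adhesion molecule Cdh2 and the calcium-binding protein S100b, both of which astrocytes also express. Cdh2 went from 9307, 7918 and 7564 normalized counts in control replicates 1, 2 and 3 to 564, 706 and 763 in KO replicates 1, 2 and 3, a log2 fold change of -3.61 (SE 0.13). S100b went from 5281, 5554 and 5167 to 378, 446 and 530, a log2 fold change of -3.57 (SE 0.13). Their KO means were 8.20% and 8.46% of control. The neural cell adhesion molecule Ncam1 went from 12145, 10407 and 10290 to 1495, 3453 and 2434, a log2 fold change of -2.23 (SE 0.24).

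Pmp22, a protein of peripheral myelin, was higher in every KO library, with 5869, 6673 and 5131 normalized counts in the control libraries against 7924, 10253 and 9958 in the KO libraries, each in replicate order, a log2 fold change of 0.67 (SE 0.13). It was not called under 5 of 19 alternatives, those with the same total per library, with or without Rn45s, quantile normalization, 2-fold, and without control replicate 3. The crest glia cadherin Cdh19 was lower with a log2 fold change of -2.06.

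Sparc, a collagen-binding matrix protein with the highest normalized counts of the list, went from 34900, 38261 and 41116 normalized counts in control replicates 1, 2 and 3 to 16745, 29544 and 21179 in KO replicates 1, 2 and 3, a log2 fold change of -0.80 (SE 0.18). The Wnt inhibitor Frzb went from 1743, 1197 and 1507 to 468, 1026 and 799, a log2 fold change of -1.01 (SE 0.25). The matrix protein Matn2 was at -0.99, the growth cone protein Gap43 at -1.54, the galectin Lgals1 at -1.22 and the adhesion molecule L1cam at -1.10, all called. Under quantile normalization Matn2 (-0.45), Lgals1 (-0.51) and L1cam (-0.54) were not called. The water channel Aqp1 was at -0.40 and not called.

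**Figure D3:**
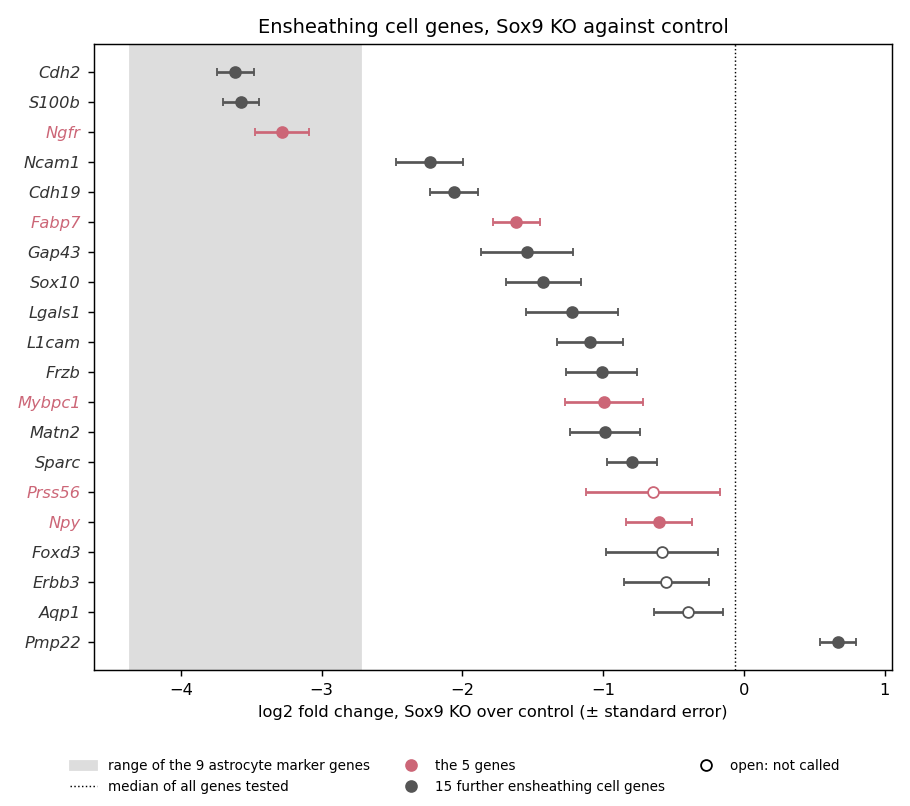
Log2 fold change, Sox9 KO over control (horizontal axis), with its standard error, of the 5 genes (red) and the 15 further ensheathing cell genes (grey); open points were not called, the grey band spans the 9 astrocyte markers and the dotted line marks the median of all genes tested, -0.07. Ngfr, S100b and Cdh2 fall inside the astrocyte range of -4.36 to -2.72, and the other genes lie to its right.

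The KO libraries differed among themselves in a way that many of these genes shared. KO replicate 1 was the lowest KO library for 4 of the 5 genes and for 14 of the 15 further genes, beside 34.4% of all genes tested. Its value was 0.517 times the mean of the other KO libraries at the median of the 5 genes and 0.588 times at the median of the 15, beside 0.990 times for all genes tested. For the astrocyte markers this median was 0.814, and for the microglia and macrophage markers 1.10. KO replicate 1 was also the lowest KO library for 6 of the 9 astrocyte markers, and for 1 of the 7 microglia and macrophage markers. Fabp7 was the exception among the 5, with KO replicate 2 lowest. Among controls, replicate 2 was the lowest for all 5 genes, beside 30.2% of all genes tested and 4 of the 15 further genes.

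**Figure D4:**
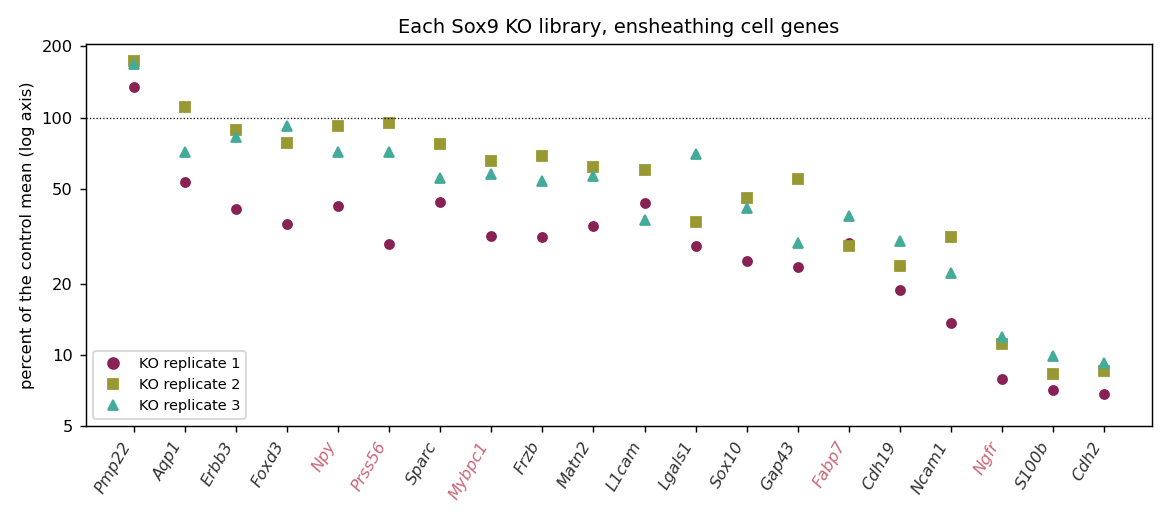
Value of each Sox9 KO library as a percent of the control mean (vertical log axis) for the 5 genes (red names) and the 15 further ensheathing cell genes, ordered by the KO mean; dots, squares and triangles are KO replicates 1, 2 and 3 and the dotted line is 100%. KO replicate 1 is lowest for 18 of the 20 genes.

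Some genes followed each other closely over the 6 libraries. Likeness was measured as the root mean square difference of the log2 profiles after centring, over 15560 other genes with a mean of at least 10, and is a description with no test. The gene most like Mybpc1 was Frzb, at 0.0508. Mybpc1 stood at 22.3%, 21.8% and 22.4% of Frzb in control replicates 1, 2 and 3 and at 22.3%, 21.2% and 23.8% in KO replicates 1, 2 and 3. The ratio thus ranged from 21.2% to 23.8%, while the log2 fold changes of the genes were -0.99 and -1.01. These values restate the likeness by which Frzb was picked. Apcdd1, a Wnt inhibitor of the cell surface, followed at 0.0750 and Fmo1, a flavin monooxygenase, at 0.0886. Of the other ensheathing cell genes, Matn2 was at rank 15 for Mybpc1, Npy at rank 41 and Sparc at rank 146.

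Npy was most like Nhsl2 at 0.104, Gm7694 at 0.127 and Fxyd2, a regulator of the sodium pump, at 0.133. Aqp1 was at rank 11 for Npy, Sparc at rank 40, Frzb at rank 42, Mybpc1 at rank 43, Matn2 at rank 107 and Erbb3 at rank 119. Fabp7 was most like Prss23, a secreted protease, at 0.0727, Rab9b at 0.0863 and the growth factor Pdgfd at 0.104. Ngfr was most like Syne1, which links the nucleus to the cytoskeleton, at 0.0605, the G protein subunit Gng4 at 0.0617 and the actin regulator Enah at 0.108. S100b was at rank 127 for Ngfr and Cdh2 at rank 155. For Fabp7, none of the ensheathing cell genes had a rank of 155 or better. Prss56 had no gene closer than Tmem51os1 at 0.242, followed by D130043K22Rik at 0.244 and Gdpd4 at 0.257. Mybpc1 was at rank 14 for Prss56, at 0.378, Frzb at rank 18, Npy at rank 24, Aqp1 at rank 41 and Matn2 at rank 54.

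The 5 genes were also set against marker lists of other cells in the same libraries. The 9 astrocyte markers fell by 3.78 on the log2 scale on average. Relative to them the log2 ratio in KO was higher by 3.17 for Npy, 3.13 for Prss56, 2.78 for Mybpc1, 2.16 for Fabp7 and 0.50 for Ngfr, and in all 5 the groups did not overlap. Against the 10 markers of neurons and neuroblasts, which fell by 3.20, Ngfr differed by -0.08 and overlapped (exact permutation p = 0.9), while the other 4 genes did not overlap. Against the 7 oligodendrocyte markers, which fell by 1.71, only Ngfr was apart, by -1.57, and Fabp7 differed by 0.09 (exact permutation p = 1). Against the microglia and macrophage markers, which rose by 1.83, all 5 were apart. Each ratio without overlap had an exact permutation p of 0.1, or 0.133 when adjusted over the 20 comparisons, which cannot pass 0.05. How often other genes lay apart from these lists was not computed. The lists themselves moved, so a gene without any change would also shift against them. For single genes the groups did not overlap in 67.2% of all genes tested.

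Marker lists of other cells that could express the 5 genes gave the following counts, beside 28.8% of all genes tested called lower and 22.2% higher. Of 8 genes of radial glia and neural stem cells, which make Fabp7, all were called lower, with Vim at a log2 fold change of -2.00. Of 3 markers of Npy interneurons, 2 were called lower, Nos1 at -2.50 and Chodl, and Sst was not called. All 10 markers of neurons and neuroblasts (Snap25 -2.51) and all 5 of oligodendrocyte precursors (Olig1 -3.55) were lower, as were 6 of 7 of oligodendrocytes (Mbp -1.09) and 4 of 5 of olfactory sensory neurons (Gnal -0.94), whose axons the ensheathing cells wrap. Of 4 Schwann cell markers 2, Prx and Mal, were lower and 1, Egr2, was higher at 2.29; Egr2 is also an immediate early gene. None of 6 fibroblast markers was called (Dcn -0.67). Of 5 mural cell markers 2 were lower, Rgs5 at -2.34 and Kcnj8. Of 5 endothelial markers 2 were lower, Cldn5 and Ly6c1, and 1 higher, Flt1 at 0.80. Of 4 ependymal markers 2 were lower, Foxj1 at -3.14 and Rsph1. Csf1r, of microglia, was at 1.995 and Slc1a2, of astrocytes, at -4.30. The part of these cells in the 5 results was not tested.

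Of 12 genes for related peptides, receptors and peptide processing, 9 were tested, 7 were called lower and none higher, beside 28.8% of all genes called lower, and the median log2 fold change was -2.15. The 4 with the highest normalized counts were processing enzymes: carboxypeptidase E (Cpe), which trims the peptide precursors, was at -4.40, the amidating enzyme Pam at -2.19, and the convertases Pcsk2 and Pcsk1 at -1.62 and -2.15. These enzymes serve many peptides.

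Of 14 genes around Ngfr, with ligands, Trk receptors and partners of its signalling, 12 were tested, 7 were called lower and none higher, with a median of -1.86, beside 28.8% called lower and a median of -0.07 over all genes. Ntrk2, the receptor of BDNF, was at -4.61. The adaptor Maged1 was at -1.22, and the co-receptor Sort1 and the adaptor Traf6 were at 0.29 and 0.51, both under 1.5-fold and not called.

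Of 13 fatty acid-binding proteins and their nuclear receptors, 8 were tested, with 1 called lower and 2 higher, beside 28.8% and 22.2% of all genes. The receptor Ppara was at -3.49 and its partner Rxra at 1.54, and the fat cell protein Fabp4 was the other gene called higher, while Fabp5 was at 0.35 and Ppard at 0.18, both not called. Of the 4 other myosin-binding proteins, Mybpc3 was called higher at 1.30 and none lower. Mybph at 0.72, Mybphl at 1.18 and Mybpc2 at -1.57 were not called, with control means between 5.26 and 11.8 normalized counts. Of the 37 other genes named Prss, serine proteases grouped here by symbol alone, 19 were tested. Of these, 7 were called lower and none higher, beside 28.8% and 22.2% of all genes. Their median log2 fold change was -1.61, beside -0.07 for all genes tested, and 14 of the 19 estimates were lower in KO. Prss23 was at -1.61, and Prss12 at 0.16, Prss36 at -0.58 and Prss53 at 0.38 were not called. The control mean was 1345 normalized counts for Prss23, but 58.7 for Prss12, 52.7 for Prss36 and 32.7 for Prss53. All other tested Prss genes had lower means over the libraries than these, so the median rests mostly on genes with low counts.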

How the data were processed

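RNA-seq libraries of TurboRFP-positive olfactory bulb cells from 3 control and 3 Sox9 KO mice were analysed. Groups and replicate numbers follow the sample titles. Per the labels and methods, the authors mapped reads to mm10 with STAR 2.5.0a, obtained gene counts from GenomicAlignments and normalized these using DESeq2 1.20.0. The deposited signal values are named RPM, but they are counts divided by 1 size factor per library: all were whole multiples of the value of 1 read within 0.01 read, so reads could be recovered. In KO replicate 1 that value is close to 1 and was set from the full digits.

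Genes with a mean of at least 1 were compared on log2(normalized count + 1) with limma 3.58.1 (R 4.3.3; trend, two-sided, Benjamini-Hochberg over 18413 genes). Fold changes on this scale understate changes of low genes. A gene was called at an adjusted p under 0.05 and 1.5-fold. Ratios were compared by exact permutation. Recovered reads were also tested with edgeR 4.0.16 and DESeq2 1.42.0. The fits were tested on simulated data in which far fewer genes changed than were called here. That test does not bear on the choice of normalization. Exonic lengths from GENCODE M21 were found for 17660 of the tested genes, and promoters from RefSeq for all 5 genes.

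Some genes of the ensheathing cell list are not reported here and were left out of its counts. The 5 genes and the gene lists were chosen with earlier results of these data known. The genes named are the 5, Sox9, the 15 further ensheathing cell genes, up to 4 of the highest genes of each related system, the 3 genes most like each of the 5 and the highest gene of each marker list. Chodl, Sst, Prx, Mal, Kcnj8, Cldn5, Ly6c1, Rsph1, Fabp4, the GC and TATA boxes and the ranks of listed genes in the likeness order were chosen after values were seen. Each library is 1 mouse, so p-values measure the spread between mice.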

Additional observations from a re-analysis of the deposited data

How the results depend on the processing

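Ngfr and Fabp7 kept their direction and call in all 19 alternatives, with log2 fold changes of -3.61 to -2.91 and of -2.07 to -1.50. Npy was not called with a pseudocount of 0.1 (-0.61), with no filter (-0.60), quantile normalization (-0.57), TMM factors (-0.55), limma without the trend (-0.60), edgeR (-0.48), DESeq2 (-0.54) or at 2-fold (-0.60), and ran from -0.85 to -0.29 when each library was left out. Mybpc1 was not called under quantile normalization (-0.47) or at 2-fold (-0.99), and ran from -1.20 to -0.67 with a library left out. Prss56 was never called; it turned to 0.14 under quantile normalization and ran from -1.08 to -0.16 with a library left out. Of the uncalled further genes, Foxd3 (0.25) and Erbb3 (0.13) changed sign under quantile normalization, where L1cam (-0.54), Lgals1 (-0.51), Matn2 (-0.45) and Pmp22 (0.22) also lost their calls. The ratio of Mybpc1 to Npy turned to 0.10 under quantile normalization, an alternative chosen after seeing the data. Quantile normalization moved the median of all genes by 0.27 on the log2 scale, the same total by -0.23 and without Rn45s by -0.31, and the share of calls that were lower went from 56.4% to 43.2%, 67.8% and 71.5%. The cause was not tested. Genes called ran from 7044 to 9532 over all genes and from 8 to 13 of the further list. Libraries share only their replicate number: same-numbered deviations correlated by -0.09, -0.01 and -0.02. A fit with the replicate block called 9275 genes, beside 9389, and changed no call of the 5 genes. Of the 5 genes Prss56 had the fewest reads, 36 to 291 per library.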
